A study of Mus musculus with 2 samples.

Results

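Erythroid and platelet genes were followed in CD8+ regulatory T cells sorted from mouse spleen, an organ in which red cells and platelets are plentiful. They are 9 genes chosen by symbol (Alas2, Slc4a1, Hbb-b1, Klf1, Car1, Car2, Pf4, Ppbp and Itga2b) out of 22609 listed. Such cells are a CD8+ subset able to hold other immune cells in check. They came by flow cytometry from the spleens of unimmunised mice aged 3 months, 1 library from wild-type mice (WT) and 1 from mice of the genotype Tgfbr2-/-Eomes-/- (the library labelled so is called DKO here), named for the deletion of a TGF-beta receptor subunit and a T-box transcription factor. The labels used here do not give the markers of the sort, the number of mice pooled, the strain, or the promoter or Cre behind the deletion, and they record no treatment.

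Red cells arise in the spleen and bone marrow from progenitors that switch on the factors GATA1 and KLF1, then fill with heme, globin and the anion exchanger of the membrane. Platelets are fragments of megakaryocytes, a sister lineage that also needs GATA1, and carry the integrin alphaIIb-beta3 on the surface and the chemokines PF4 and PPBP in their granules. Young red cells and platelets have no nucleus but keep messenger RNA for a time.

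The 9 genes were scarce in both libraries, and each of the 8 that had counts had a higher value in the DKO library. Car2, Pf4, Itga2b and Slc4a1 were 2.99-fold to 5.32-fold higher, Alas2 was 2.06-fold higher, and Klf1, Car1 and Ppbp were 1.34-fold to 1.72-fold higher. Hbb-b1 was listed at 0 in both. The adult beta-globin row that did have counts, Beta-s, had a lower value in the DKO library. It was 1.71-fold lower there, short of the 2-fold limit used below. Replication was lacking (1 library per genotype), so no test between genotypes was made: each interval below is an exact 95% interval of counting error only, and compares 2 libraries.

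Reads assigned to genes numbered 22307065 for WT and 19661212 for DKO. Values are given as CPM, the counts scaled to library size after TMM correction (a trimmed mean of gene ratios between the libraries), under which 1 count was 0.0456 CPM in WT and 0.0500 CPM in DKO. Eomes was at 469 CPM in WT and 180 CPM in DKO and Tgfbr2 at 357 and 244 CPM, so neither was near 0 in the library labelled with the loss of both. Eomes was 2.61-fold lower there, and Tgfbr2 was 1.46-fold lower, short of the 2-fold limit used below. Counts over a whole gene do not separate a deleted part from the remainder, so these values check the label only in part. The 9 CD8 T cell markers listed summed to 7853 CPM in WT and 6996 CPM in DKO, and each of the 9 was present in both. Genes with 1 or 2 counts were few beside those at 0: 9990 genes stood at 0 in WT but 126 at 1 count and 80 at 2, and in DKO 9325 stood at 0, 186 at 1 and 160 at 2. A total of 392 genes had 0 counts in WT and at least 10 in DKO, and 175 the reverse, so a gene at 0 in 1 library and counted in the other was common in these data. Whether low counts were filtered is not given in the sources used here, and a fold written as "at least" assumes that a 0 is a plain count.

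The promoters of the erythroid genes are shown because GATA1 and KLF1 bind short motifs there, and because Alas2 and Klf1 had higher values in the DKO library while the beta-globin row had a lower one. Sequences are the 250 bases before the start of each gene in the RefSeq table of build GRCm38.p6, in which 5 of the 9 members had an entry (Alas2, Klf1, Pf4, Ppbp and Itga2b). Counts were made on mm9, so these coordinates belong to the sequences and not to the counts. Hbb-bs is the gene that RefSeq also calls Beta-s. Capitals mark the GATA motif AGATAA, its form with another first letter, TGATAA, the forms of both that end in G, written AGATAG in the first case and TGATAG in the other, and the motif CACCC, on either strand.
Alas2 (chrX:150547167-150547416, plus strand): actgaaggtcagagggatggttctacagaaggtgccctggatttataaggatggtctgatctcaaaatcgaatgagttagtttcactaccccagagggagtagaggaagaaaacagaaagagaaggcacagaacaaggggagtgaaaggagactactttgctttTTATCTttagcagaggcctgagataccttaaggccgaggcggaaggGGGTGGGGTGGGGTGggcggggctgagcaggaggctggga
Klf1 (chr8:84901732-84901981, plus strand): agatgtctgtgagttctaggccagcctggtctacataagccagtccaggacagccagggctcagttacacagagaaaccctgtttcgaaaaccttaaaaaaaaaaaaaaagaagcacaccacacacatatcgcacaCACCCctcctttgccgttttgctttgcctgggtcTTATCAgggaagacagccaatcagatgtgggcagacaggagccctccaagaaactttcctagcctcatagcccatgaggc
Hbb-bs (chr7:103827929-103828178, minus strand): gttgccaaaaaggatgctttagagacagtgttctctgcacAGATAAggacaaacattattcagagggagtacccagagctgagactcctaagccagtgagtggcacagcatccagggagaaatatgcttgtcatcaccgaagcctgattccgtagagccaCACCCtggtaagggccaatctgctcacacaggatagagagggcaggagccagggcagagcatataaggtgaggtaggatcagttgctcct
Each of these 3 windows held 1 GATA motif, and the CACCC motif stood 3 times in Alas2 and 1 time each in Klf1 and Hbb-bs. The GATA motif began 86 bases before the start in Alas2, 80 in Klf1 and 210 in Hbb-bs. Of all 32851 promoters in the table, 26.5% held a GATA motif, 52.0% held CACCC and 11.8% held both. The windows of Pf4, Ppbp and Itga2b held none of these motifs. A match describes the sequence and is not a bound site.

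Slc4a1, the gene of band 3, the chloride-bicarbonate exchanger of the red cell membrane, differed the most among the members. There were 26 counts in WT and 128 in DKO, equal to 1.19 and 6.40 CPM, and the gene was 5.32-fold higher in DKO (interval 3.52 to 8.58). The DKO value lay well outside the counting interval of the WT value, which reached 1.74 CPM.

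Alas2 encodes the erythroid form of the first enzyme of heme synthesis. It had 20 counts in WT and 38 in DKO, or 0.912 and 1.90 CPM. The ratio was 2.06 (1.18 to 3.78), just past the 2-fold limit used here, and with a prior count of 5 in place of 0.5 it was 1.89 and short of it. Apex2 overlaps the end of Alas2 on the opposite strand, and 86.2% of the 50-base windows of the Alas2 transcript occurred in no other gene. Apex2 had 226 and 208 counts. The strand setting of the counting is not given in the sources used here. How reads from the stretch shared by Alas2 and Apex2 were assigned, or whether they were left out as ambiguous, is therefore not known.

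Klf1, the transcription factor that switches on adult beta-globin and other red cell genes, had 39 and 59 counts, or 1.78 and 2.95 CPM. Its ratio of 1.65 (1.09 to 2.55) did not reach 2-fold. All windows of the Klf1 transcript were unique to it.

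Hbb-b1, a beta-globin gene, had 0 counts in both libraries, below a floor of 3 counts that equals 0.137 CPM in WT and 0.150 CPM in DKO. Of the 10 globin rows listed, 9 were at 0 in both, Hba-a1, Hba-a2 and Hbb-b2 among them, and Beta-s alone had counts. Beta-s had 509 counts in WT and 271 in DKO (23.2 and 13.6 CPM). It was 1.71-fold lower in DKO (interval 1.47 to 1.99), short of the 2-fold limit. Globin genes come in near-identical copies: 34.2% of the 50-base windows of the Hbb-bs transcript were unique to it, and the remainder also occurred in Hbb-bt. Non-unique alignments made up 66.4% of the rows' total in WT and 64.8% in DKO and were not assigned to genes. A globin value of 0 therefore does not show that the transcript was missing, and the Beta-s ratio covers only reads assigned to that row. Whether that row counts reads or alignments is not given in the sources used here. How many globin reads were lost to these rows was not tested.

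Car1 and Car2 encode carbonic anhydrases, enzymes that interconvert carbon dioxide and bicarbonate, abundant in red cells and, for Car2, also made by other cell types. They were the 2 most abundant members by count in each library. Car1 had 345 counts in WT and 540 in DKO, or 15.7 and 27.0 CPM, a ratio of 1.72 (1.498 to 1.97). Car2 had 227 and 664 counts, or 10.3 and 33.2 CPM, a ratio of 3.205 (2.76 to 3.75). The intervals of these 2 ratios did not overlap. Within the pair, Car1 took 60.3% of the counts in WT (exact Clopper-Pearson interval 56.2 to 64.3) and 44.9% in DKO (42.0 to 47.7), so Car2 passed Car1 by count in the DKO library. This share does not depend on how the libraries are scaled. The transcript of Car1 shared windows with the gene Gm5843, and 85.5% of its windows were unique, against 100% for Car2.

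Pf4 and Ppbp, 2 neighbouring genes on chromosome 5, encode the chemokines of platelet alpha granules (CXCL4 and CXCL7). Pf4 had 42 counts in WT and 138 in DKO (1.91 and 6.90 CPM) and was 3.58-fold higher (2.54 to 5.22). Ppbp had 189 and 231 counts, or 8.62 and 11.6 CPM, and its ratio of 1.34 (1.10 to 1.63) did not reach 2-fold. The 2 intervals did not overlap. Pf4 made up 18.2% of the counts of the pair in WT (13.4 to 23.8) and 37.4% in DKO (32.4 to 42.6), so the makeup of the pair differed between libraries by more than counting error.

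Itga2b encodes integrin alphaIIb (CD41), the platelet receptor of fibrinogen and an early marker of megakaryocytes and blood progenitors. Its 68 and 186 counts equal 3.10 and 9.30 CPM, a level 2.99-fold higher in DKO (2.26 to 4.02). Its partner Itgb3, the beta3 chain, which other cells pair with a different alpha chain, had 565 and 800 counts and a ratio of 1.55 (1.39 to 1.73). Itga2b was 10.7% of the 2 chains' counts in WT (8.44 to 13.4) and 18.9% in DKO (16.5 to 21.4).

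**Figure D1:**
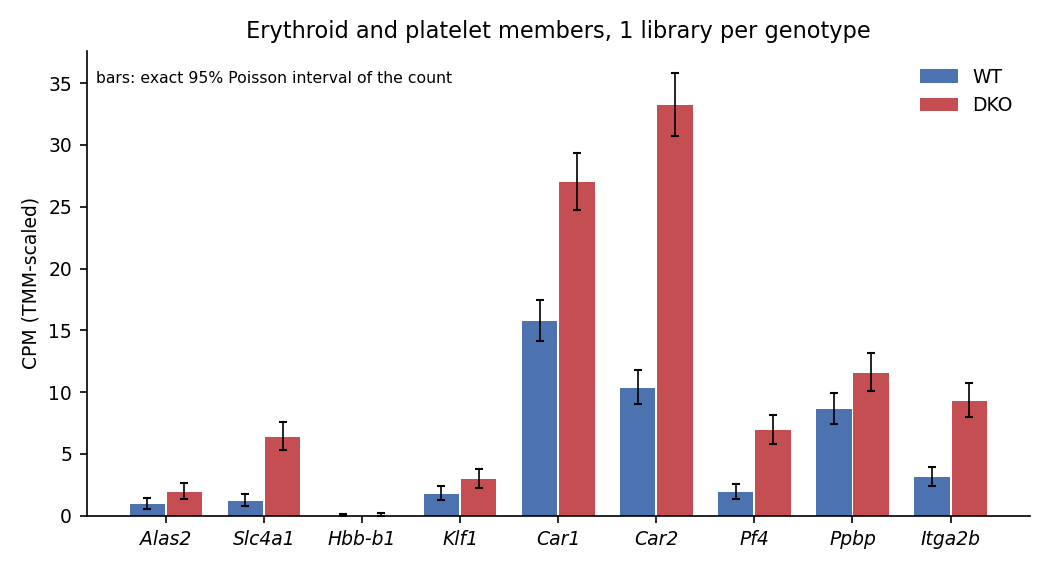
CPM of the 9 members in WT (blue) and DKO (red), 1 library each. Error bars are exact 95% Poisson intervals of the count. Car2 has the highest DKO value, 33.2 CPM, Hbb-b1 is at 0 in both, and each of the other 8 bars is higher in DKO.

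**Figure D2:**
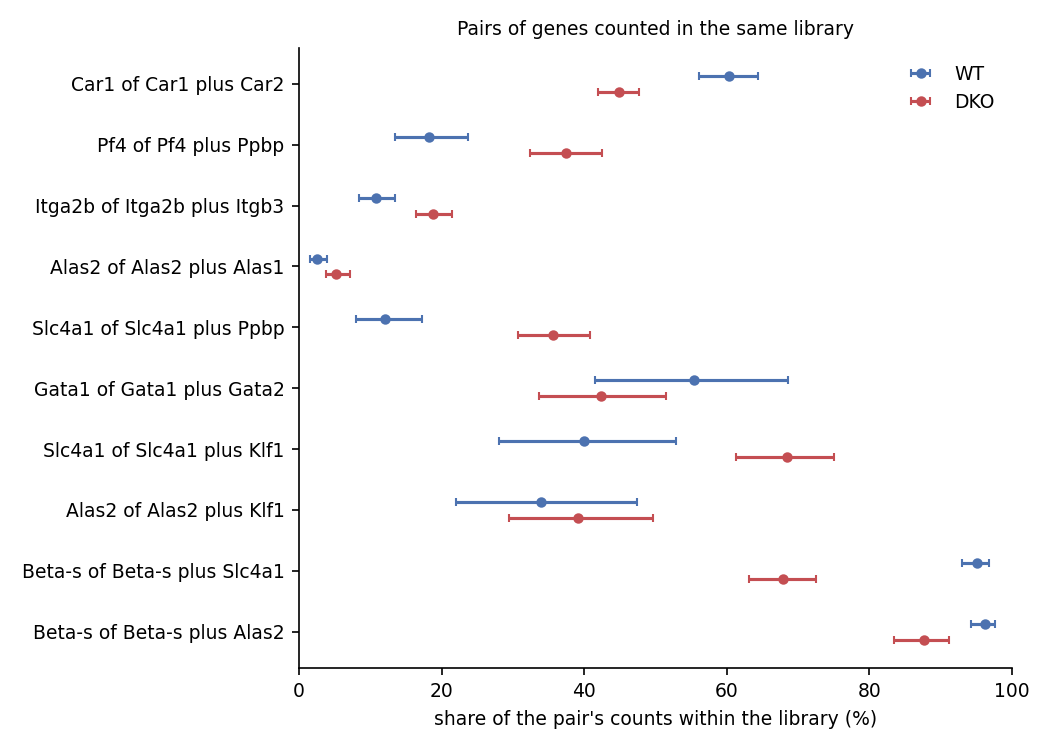
Share in percent that the first gene takes of the counts of a pair in the same library, with exact Clopper-Pearson 95% intervals, in WT (blue) and DKO (red). Of 10 pairs, the intervals of WT and DKO do not overlap in 7 and overlap in 3 (Alas2 with Alas1, Alas2 with Klf1, and Gata1 with Gata2). Beta-s is at 95.1% and 67.9% of its pair with Slc4a1. The pairs were picked after their values were seen, and some share a gene. No share over all gene pairs was computed, so the count describes these pairs only.

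Pairs of red cell genes, picked after their values were seen, were compared within each library. Each pair below whose intervals did not overlap held Slc4a1, the member with the largest ratio, or Beta-s, which was lower in DKO. Slc4a1 made up 40.0% of the counts of Slc4a1 plus Klf1 in WT (28.0 to 52.9) and 68.4% in DKO (61.3 to 75.04). Alas2 beside Klf1 took 33.9% in WT (22.1 to 47.4) and 39.2% in DKO (29.4 to 49.6), and these intervals overlapped. So did those of Gata1 beside Gata2, at 55.4% in WT (41.5 to 68.7) and 42.4% in DKO (33.6 to 51.6). Beta-s made up 95.1% of its counts plus those of Slc4a1 in WT (92.96 to 96.8) and 67.9% in DKO (63.1 to 72.5). Beside Alas2, Beta-s took 96.2% in WT (94.2 to 97.7) and 87.7% in DKO (83.5 to 91.1). The erythroid members Alas2, Slc4a1, Hbb-b1 and Klf1 together summed to 3.87 CPM in WT and 11.3 CPM in DKO, a ratio of 2.90 (2.25 to 3.77). The platelet members Pf4, Ppbp and Itga2b summed to 13.6 and 27.8 CPM, a ratio of 2.04 (1.77 to 2.35), and the 2 intervals overlapped. In bulk samples, fewer cells of a type and less RNA per cell cannot be told apart.

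Per kilobase of the longest coding transcript in GENCODE, the order of levels was not the same in the 2 libraries. In WT it ran from Car1 at 13.2 CPM per kb, Ppbp at 7.96, Car2 at 5.79 and Pf4 at 3.26 to Klf1 at 1.16, Itga2b at 0.902, Alas2 at 0.448 and Slc4a1 at 0.261. In that order Klf1 and Itga2b overlapped in their counting intervals, as did Alas2 and Slc4a1. In DKO it ran from Car1 at 22.6 CPM per kb, Car2 at 18.6, Pf4 at 11.7 and Ppbp at 10.7 to Itga2b at 2.71, Klf1 at 1.93, Slc4a1 at 1.41 and Alas2 at 0.933. Pf4 and Ppbp overlapped there, and so did each step from Itga2b down to Alas2. Pf4 thus stood below Ppbp in WT and overlapped with it in DKO. Car2 stood below Ppbp in WT and above it in DKO, without overlap in either library. Slc4a1 and Alas2 were the lowest in both libraries, and their order was not resolved in either. The transcripts of 8 members were matched, Hbb-b1 being the exception.

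Counted against a limit of 2-fold with an interval that leaves out a ratio of 1, 5 of the 8 members that reached 1 CPM in WT or DKO were higher in DKO (Alas2, Slc4a1, Car2, Pf4 and Itga2b), 0 were lower and 3 met neither limit. Alas2 reached 1 CPM through the DKO library alone, the one in which it is high, and 4 of the 7 other members were higher. Over all 11735 genes that reached this level, 11.6% were higher and 3.60% lower, and 635 of them, 545 called higher, reached 1 CPM through DKO alone. The counts and medians of such genes describe the lists below and support nothing further. The median log2 ratio was 1.31 over the 8 members and 0.00 over all genes. With a minimum of 5 CPM, 739 of 9953 genes were higher and 146 lower, and 4 of 6 members were higher. Ratios depended on abundance, for which the larger CPM value of a gene was used. From 1 to 5 CPM, where 35.0% of 1782 genes were higher and the median log2 ratio was 0.46, 1 of 2 members (Alas2, not Klf1) was higher. From 5 to 20 CPM, where 18.8% of 2398 genes were higher and the median was 0.18, 3 of 4 members were higher (Slc4a1, Pf4 and Itga2b, not Ppbp). From 20 to 100 CPM, where 4.71% of 4928 genes were higher and the median was -0.02, 1 of 2 members (Car2, not Car1) was higher. Among genes as scarce as Alas2 and Klf1, a 2-fold higher value in DKO was therefore common, and less so among genes as abundant as Car2.

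**Figure D3:**
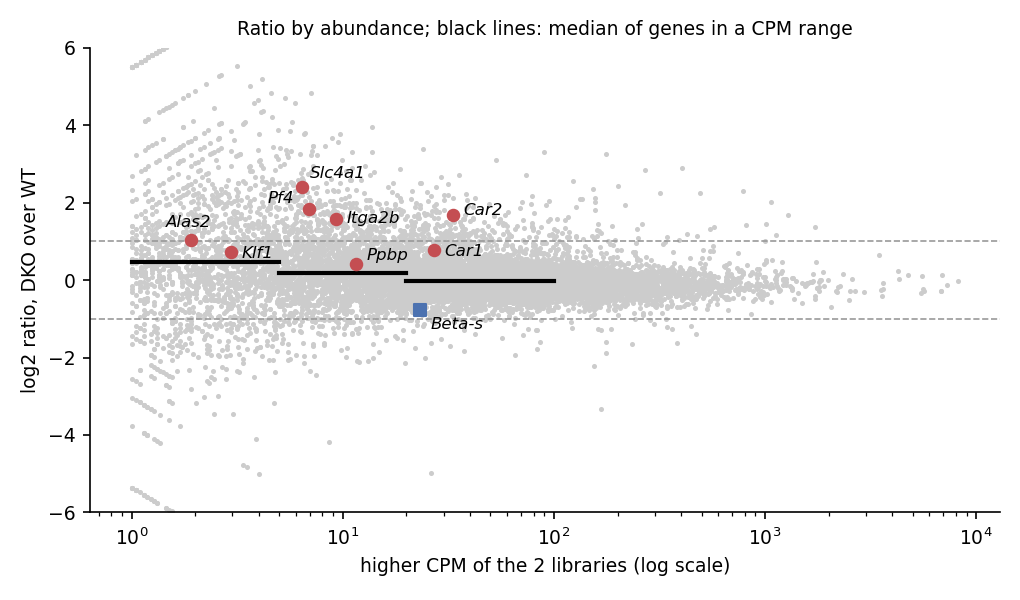
Log2 ratio of DKO over WT against the larger of a gene's CPM values (log axis) for 11735 genes (grey, 81 lie beyond the plotted range), with the members in red and Beta-s as a blue square. Black lines are the median of genes from 1 to 5, 5 to 20 and 20 to 100 CPM, dashed lines are 2-fold. Each member lies above the median of its range, within the grey cloud at low abundance, and Beta-s lies at -0.77.

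Genes of heme synthesis did not differ as Alas2 did. Of 12 measured genes, Alas2 was the 1 higher, 0 were lower and 11 met neither limit, with a median log2 ratio of -0.01 that was 0.04 under scaling by total counts and 0.16 under scaling by CD8 T cell markers. Alas1, the form of the first enzyme made in all cells, had 35.0 and 34.4 CPM and a ratio of 0.983 (0.885 to 1.09). Urod and Fech, which act late in the pathway, had ratios of 1.01 and 1.07. Slc25a37, the mitoferrin that brings iron into mitochondria, was at 42.5 and 21.6 CPM and 1.96-fold lower (1.75 to 2.21), short of the limit. Alas2 made up 2.54% of the counts of Alas1 plus Alas2 in WT (1.56 to 3.90) and 5.24% in DKO (3.74 to 7.12), so nearly all of the signal for this step was from the ubiquitous gene.

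Of the 14 red cell membrane genes listed, 10 were measured, and 5 of them were higher, 0 lower and 5 neither, with a median log2 ratio of 1.06. Add2, Rhag and Icam4 entered through the DKO library alone, and with a minimum of 5 CPM 1 of 4 was higher. Besides Slc4a1, the higher ones were Ermap (1.96 and 4.70 CPM, 2.38-fold), the ammonia channel gene Rhag (0.912 and 2.15 CPM, 2.33-fold), Add2 (2.81-fold) and Icam4, an adhesion molecule of erythroblast islands, which had 0 and 20 counts and was at least 7.31-fold higher against a floor of 3 counts in WT. Epb4.2, which holds band 3 to the membrane skeleton, had 0 and 18 counts and stayed under 1 CPM. Kel had 0 and 4 counts, and Sptb and Ahsp were not analysed here. Epb4.1, the skeleton protein 4.1, which T cells also make, was at 313 and 233 CPM and 1.34-fold lower, Ank1 had a ratio of 0.871 (0.645 to 1.17) and Rhd of 0.821 (0.549 to 1.21).

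Among 16 listed genes of late erythroblasts and reticulocytes, 9 were measured, with 5 higher, 0 lower, 4 neither and the median log2 ratio at 1.03. Hemgn, Rhag and Add2 entered through DKO alone, and 1 of the 5 genes at 5 CPM or more was higher. Hemgn, a nuclear factor of erythroid cells, was at 0.729 and 4.60 CPM and 6.15-fold higher (3.69 to 11.5), and Cited4 was 2.88-fold and Samd14 2.04-fold higher. Tfrc, the transferrin receptor of erythroblasts and dividing cells, had 54.7 and 57.8 CPM and a ratio of 1.06 (0.974 to 1.15). The more restricted genes Tspo2, Trim10 and Cldn13 had 7 and 2, 5 and 3, and 4 and 3 counts, so no difference was detectable at this depth. Over the genes of this list that reached 5 CPM the median was 0.08.

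Factors and receptors shared by erythroid, megakaryocyte and progenitor cells differed from gene to gene. Of 15 measured, 6 were higher, 0 lower and 9 neither; the median log2 ratio was 0.80. Epor entered through DKO alone, and 4 of 9 were higher with a minimum of 5 CPM. Gata1 itself had 31 and 53 counts and a ratio of 1.86 (1.18 to 3.02). Gata2, a factor of progenitors, mast cells and basophils, was 3.12-fold higher (1.98 to 5.20) from 25 and 72 counts. Kit, the stem cell factor receptor, was at 7.29 and 21.0 CPM and 2.87-fold higher (2.39 to 3.48), and Lyl1 was 3.27-fold, Lmo2 2.55-fold and Bcl11a 2.00-fold higher. The erythropoietin receptor gene Epor was 3.29-fold higher (1.94 to 6.07) from 18 and 55 counts. Tal1 and Gfi1b, both erythroid and megakaryocyte factors, had ratios of 0.961 (0.659 to 1.40) and 0.736 (0.417 to 1.26). Ldb1 and Zfpm1, at 456 and 329 CPM and at 180 and 123 CPM, were 1.39-fold and 1.46-fold lower.

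Platelet surface receptors held genes with some of the highest ratios. Of 16 measured, 9 were higher, 0 lower and 7 neither; the median log2 ratio was 1.13. Gp1bb, Gp5, Gp9, Clec1b and P2ry1 entered through DKO alone, and with a minimum of 5 CPM 4 of 8 were higher, with a median of 0.84. Clec1b, the platelet receptor CLEC-2, was 14.6-fold higher (7.26 to 39.6), with 7 counts in WT and 99 in DKO. Of the chains of the von Willebrand factor receptor, Gp1bb had 12 and 64 counts (5.66-fold), Gp9 had 19 and 82 (4.64-fold), Gp5 had 0 and 25 (at least 9.14-fold) and Gp1ba had 4 and 1. Gp1ba stayed near the floor, where no difference was detectable. The ADP receptor gene P2ry1 was 5.65-fold higher from 13 and 69 counts, while P2ry12, also an ADP receptor, had 80 and 88 counts and a ratio of 1.21 (0.881 to 1.66). The thrombin receptor genes F2rl3 and F2rl2 were 2.64-fold and 2.02-fold higher and Ptgir 2.38-fold. Tbxa2r, the thromboxane receptor, the most abundant of the list at 140 and 84.3 CPM, was 1.66-fold lower (1.56 to 1.76), and Selp and Itga2 had ratios of 1.31 (0.748 to 2.33) and 1.01 (0.893 to 1.14).

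Of the 22 measured genes of platelet granules and cytoskeleton, 8 were higher, 1 lower and 13 neither; the median log2 ratio was 0.47. Alox12 and Sdpr entered through DKO alone and Serpine2 through WT alone, and 4 of 14 were higher at 5 CPM or more, with 0 lower. Alox12, platelet 12-lipoxygenase, was 8.73-fold higher (4.96 to 18.1) from 12 and 99 counts. Sdpr was 4.87-fold, Thbs1 3.26-fold and F13a1, a coagulation factor that macrophages also make, 2.93-fold higher, from 18.9 to 55.3 CPM. F5, Gng11 and Myl9 were 2.31-fold, 2.01-fold and 2.32-fold higher. Tubb1, the platelet beta-tubulin, had 44 and 46 counts and a ratio of 1.15 (0.742 to 1.77), and Vwf was 1.54-fold lower (1.13 to 2.11) from 115 and 68 counts. Serpine2, with 32 and 4 counts, was the lower gene. Plek and Tgfb1, which leukocytes also make, were the most abundant, at 487 and 405 CPM and at 187 and 169 CPM.

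**Figure D4:**
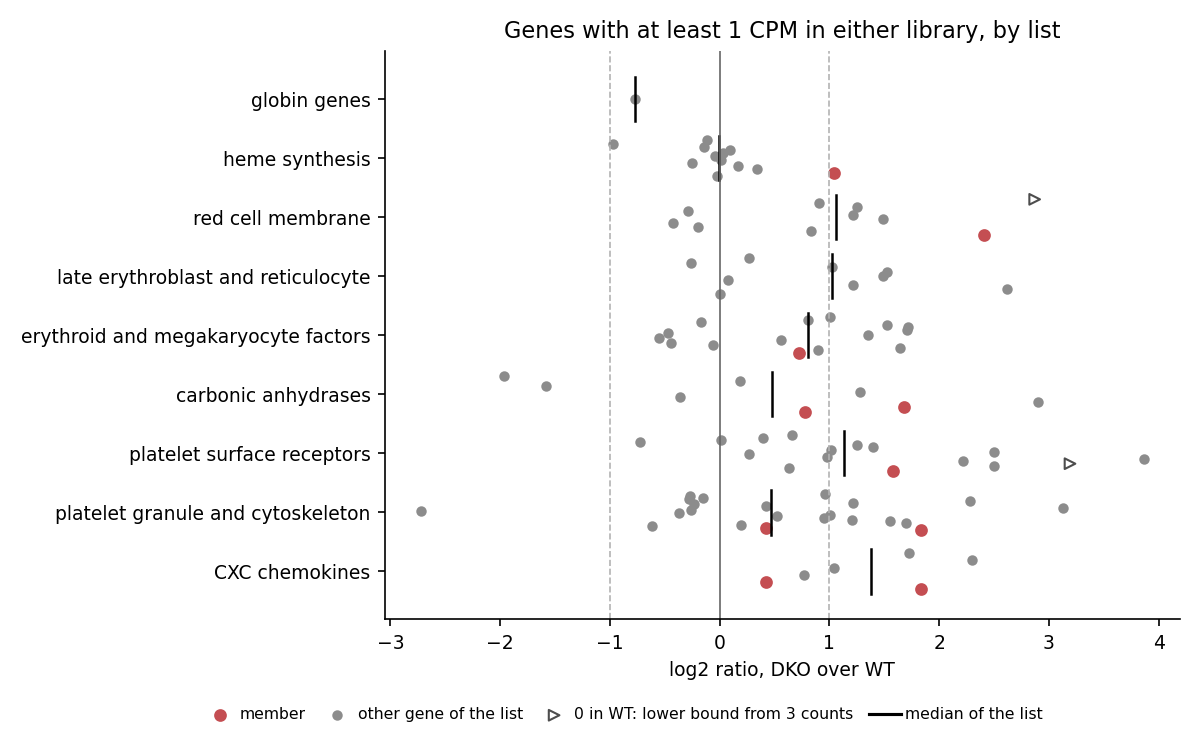
Log2 ratio of DKO over WT for each gene that reached 1 CPM in WT or DKO, by list, with members in red and the median of a list as a black line. Open triangles are genes at 0 counts in WT, drawn at the lower bound that 3 counts allow, and dashed lines are 2-fold. Heme synthesis lies around 0 except for Alas2 and Slc25a37. Of the platelet surface receptors, 15 of 16 lie to the right of 0, 5 of which reached 1 CPM through DKO alone. The share of all genes to the right of 0 was not computed.

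The other carbonic anhydrases did not follow Car2 as a family. Of 16 listed, 8 were measured, with 3 higher, 2 lower and 3 neither. Car9 entered through DKO alone, and both lower genes through WT alone. Car5b, a mitochondrial form, was at 1.46 and 11.1 CPM and 7.48-fold higher (5.21 to 11.3), and Car9 was 2.43-fold higher from 11 and 25 counts. Car11 and Car15 were 3.00-fold and 3.91-fold lower from 57 and 17 and from 36 and 8 counts. Car12 had a ratio of 1.13 (0.916 to 1.41), and 7 of the family stood at 0 in both libraries.

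Markers of most other blood cells had higher sums in the same library. For the counts of genes above a ratio of 1 given here, no share over all genes was computed. The median log2 ratio was 0.00 over all genes. By range it was 0.46 from 1 to 5 CPM, 0.18 from 5 to 20 CPM and -0.02 from 20 to 100 CPM. Neutrophil markers, 12 of 12 above a ratio of 1, summed to 687 CPM in WT and 2823 CPM in DKO, a 4.11-fold ratio. Dendritic cell markers summed to 955 and 2592 CPM (2.71-fold). Most of both sums came from H2-Aa (398 and 1278 CPM) and H2-Ab1 (368 and 1007 CPM). The 10 measured were all above a ratio of 1, with a median log2 ratio of 1.31, and Bst2 was at 1.08. Monocyte and macrophage markers summed to 1122 and 1954 CPM (1.74-fold), and NK cell markers to 605 and 999 CPM (1.65-fold). CD4 T cell markers summed to 99.3 and 238 CPM (2.39-fold). The 10 genes of red pulp macrophages, which take up old red cells and recycle their iron, summed to 482 and 856 CPM, a ratio of 1.78, with Spic at 167 and 373 counts. Basophil and mast cell markers summed to 21.7 and 63.3 CPM (2.92-fold), with Mcpt8 at 34 and 138 counts. B cell markers summed to 138 and 96.2 CPM, but the lower sum rested on Cd22 (82.8 and 24.1 CPM): 6 of 8 measured were above a ratio of 1, with a median log2 ratio of 0.59. The 9 erythroid and platelet genes summed to 43.6 and 99.2 CPM, a ratio of 2.28 (2.11 to 2.46). In these cell type lists no gene was at 0 in both libraries, and Il4 (18 and 0 counts) and Ebf1 (6 and 0 counts) were at 0 in DKO. Which cells the erythroid and platelet reads came from was not tested.

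**Figure D5:**
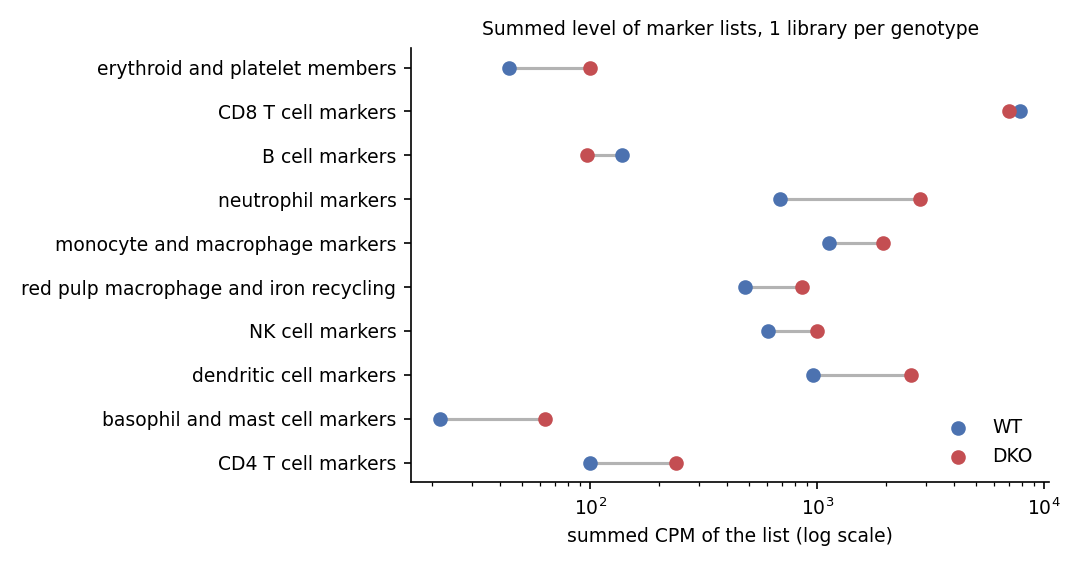
Summed CPM (log axis) of the 9 members and of 9 marker lists of cell types in WT (blue) and DKO (red), 1 library each. The members sum to 43.6 and 99.2 CPM, and CD8 T cell markers are at 7853 and 6996 CPM. The B cell sum is lower in DKO through Cd22, while 6 of 8 measured B cell markers are higher in value. The share of all genes higher in value was not computed.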

How the data were processed

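Libraries from total RNA of the sorted cells were read as 50-base single reads, per the labels' protocols. The authors deposited raw read counts for every gene symbol, 1 library per genotype. TopHat2 2.0.8b, HTSeq, bcl2fastq and build mm9 are named in the submitters' processing notes, without roles. Neither the annotation nor the strand setting is stated in these sources.

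From the deposited counts, 5 rows that name no gene were left out. They were reads outside genes (4.89% of the rows' total in WT, 4.45% in DKO), ambiguous reads (0.209% and 0.212%), non-unique alignments (66.4% and 64.8%) and 2 rows at 0. Counts were scaled by TMM (edgeR 4.0.16 in R 4.3.3, factors 0.983 and 1.02). Ratios used a prior count of 0.5. Intervals are exact Clopper-Pearson 95% intervals of the DKO share of a gene's counts, turned into a ratio (scipy 1.17.1). Intervals of levels are exact Poisson intervals. No source used here names molecular identifiers, so reads need not be separate molecules, and all intervals and floors hold for counting error alone. Genes that reached 1 CPM in WT or DKO were called higher or lower at 2-fold when the interval left out 1. Alternatives were total counts, DESeq2 1.42.0 size factors or CD8 T cell markers as scale, other minimums, fold limits and prior counts, and no interval. The scripts were tested on simulated data.

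The members and the 18 gene lists were chosen with earlier results of these data known. Some listed genes are not reported here and are outside the list counts. Named genes were the 9 members, genes of each list with at least 1 CPM (highest levels and largest ratios), list genes called, and defining genes at 0. Further genes of the lists, the gene pairs and Apex2 were picked after their values were seen. Transcript windows and lengths came from GENCODE M21 (GRCm38), whose transcripts are spliced, so copies elsewhere in the genome were not searched.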

Additional observations from a re-analysis of the deposited data

How the results depend on the processing

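No paired analysis was possible because each genotype has 1 library, and no library could be left out. The count of 5 higher members was 5 under each of the 3 other scalings, with no minimum and with the fold limit alone, 4 with a minimum of 5 CPM or a prior count of 5 (both without Alas2), 7 at 1.5-fold and 1 (Slc4a1) at 4-fold. Of the members, 0 were lower in every one of these. Over all genes, the higher count was 739 with a minimum of 5 CPM, 2073 at 1.5-fold and 515 at 4-fold, and the lower count was 692 with no minimum, 146 with a minimum of 5 CPM, 987 at 1.5-fold and 138 at 4-fold. Fold limits and the interval rule do not change a ratio. Each of the 8 member ratios stayed above 1 under the 3 other scalings, which raised it, and with a prior count of 5, which lowered it. These settings leave little room for a ratio below 1. They ranged from 1.33 to 1.505 for Ppbp and from 4.71 to 5.97 for Slc4a1. Scaling by CD8 T cell markers raised the median log2 ratio of all genes to 0.17. Depth limits genes such as Alas2 most, where 20 WT counts give a ratio between 1.18 and 3.78.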

Other observations

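The CXC chemokine genes beside Pf4 and Ppbp were 4 of 6 measured higher when those 2 are included, with 0 lower. Cxcl16, a chemokine of macrophages and dendritic cells, was 3.30-fold higher in DKO (2.76 to 3.98) from 161 and 485 counts. Cxcl10 and Cxcl9, both induced by interferon, were 4.93-fold (3.47 to 7.32) and 2.06-fold (1.74 to 2.44) higher. Cxcl5, a close relative of Ppbp, was at 0 in both libraries.

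Among basophil and mast cell genes, Fcer1a, the IgE receptor alpha chain, was 5.91-fold higher (3.48 to 11.3) from 15 and 83 counts, and Prss34 was 5.28-fold higher from 31 and 151 counts. Ms4a2, the beta chain of the same receptor, had 12 and 10 counts, and Cpa3 had a ratio of 1.65 (1.18 to 2.33). Il4 had 18 counts in WT (0.821 CPM) and 0 in DKO, at least 5.47-fold lower against a floor of 3 counts. It stayed under 1 CPM in both libraries and so was not called.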
